A study of Mus musculus with 21 samples.

Results

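Ba/F3 cells that had been actuated in droplets at 1 kHz were compared with untreated Ba/F3 cells of the same batch, across all transcripts read by an Illumina BeadChip. The comparison holds 6 of the 21 samples of the series, chosen by their labels: 3 arrays (replicates 1 to 3) of cells kept moving on the device for 15 min at 400 Vpp and a sinusoidal frequency of 1 kHz, and 3 arrays (replicates 1 to 3) of cells with no treatment. A further 3 arrays of the batch came from cells actuated at 18 kHz at the same voltage and for the same time, and they enter only where named. Each array carried 45281 probes, of which 13814 were detected (a deposited detection p-value below 0.01) on at least 3 of the 6 arrays, and 1 probe per gene left 9467 genes. The question was which transcripts differ after actuation at the lower frequency, which stay level, and how small a change these arrays could have shown.

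Digital microfluidics moves single droplets over an array of insulated electrodes by switching voltages under them, and cells suspended in a droplet meet the electric field, the shear of the moving liquid and any warming. Cells answer many kinds of stress within minutes by transcribing immediate early genes such as Fos and Egr1, whose products switch on later genes, and by transcribing chaperone genes when proteins unfold. The transcripts of immediate early genes are short-lived, so that their levels move quickly in both directions. No label states the time between actuation and lysis, and none states whether the replicates were separate cultures, so that the p-values reflect only how these samples spread, which may be technical.

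Ba/F3 is a mouse line that grows on interleukin 3 and is commonly described as pro-B. Transcripts of the interleukin 3 receptor chains Il3ra, Csf2rb and Csf2rb2, of the leukocyte phosphatase Ptprc and of the B cell receptor chain Cd79b were detected on all 6 arrays. The other 14 of 19 markers of the line and of pro-B cells on the array were detected on 0 of 6 arrays, among them the B cell genes Pax5, Ebf1, Vpreb1, Igll1, Rag1 and Rag2. Of 14 mast cell and basophil markers 8 were detected on all 6 arrays, including the proteases Cpa3, Cma1 and Mcpt8, and so were 11 of 16 neutrophil and macrophage markers, including S100a8 and Mpo. In each of these lists 5 markers were detected on 0 of 6 arrays, among them Kit, Fcer1g and Tpsab1, and Elane, Csf1r and Itgam. Of 14 erythroid and megakaryocyte markers 6 were detected on all 6 arrays, among them Klf1 and Gata1, and 6 on none. Of 15 T and natural killer cell markers 2 were detected on all 6 arrays, Cd8b1 and Prf1, and 9 on none. Most of the listed markers of the line and of pro-B cells were thus not seen above background in either group.

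The arrays were read on a pair of beadchips, and treatment was not spread evenly over them. The 3 untreated arrays and 1 kHz replicate 2 shared a beadchip, whereas 1 kHz replicates 1 and 3 were on a second one that held no untreated array. For those 2 arrays the beadchip and the treatment cannot be told apart. Probes detected per array numbered 13314 to 14167 at 1 kHz and 13123 to 14355 in untreated cells, and the 95th percentile of bead intensity was 1401.8 to 1857.1 at 1 kHz and 1482.4 to 1524.2 in untreated cells. On normalized levels, 1 kHz replicate 2 differed by more than 2-fold from the untreated arrays in 6 to 43 genes, and untreated arrays differed among themselves in 26 to 46 genes. The 1 kHz arrays of the second beadchip differed from untreated arrays in 210 to 356 genes and from 1 kHz replicate 2 in 279 and 315 genes, but from each other in 4. The precision of every value is limited by having 3 arrays a group.

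**Figure D1:**
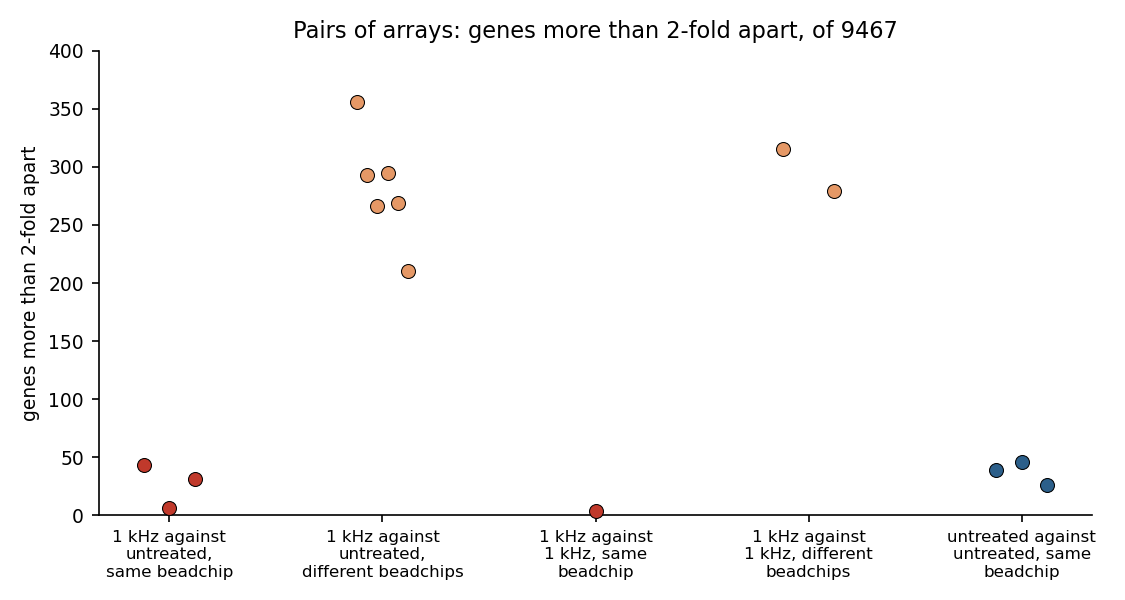
Number of genes, of 9467, whose normalized levels lay more than 2-fold apart in each of the 15 pairs of arrays (vertical axis), grouped by treatment and beadchip; each point is 1 pair. Pairs on the same beadchip differed in 4 to 46 genes whatever their treatment, and pairs on different beadchips in 210 to 356.

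No gene passed the test at 1 kHz. Of 9467 genes 0 had an adjusted p below 0.05 (0%), by limma's moderated statistics with Benjamini-Hochberg adjustment, and the lowest adjusted p was 0.547. Without adjustment 834 genes (8.81%) lay below 0.05, of which 411 were higher (4.34%) and 423 lower (4.47%) at 1 kHz, against 473.35 that the threshold itself gives if no gene differs. This split moved with the scaling: it was 644 higher and 130 lower with arrays scaled by their medians, and 507 higher and 258 lower with cyclic loess. In 1191 genes (12.6%) the groups did not overlap, 320 with all 3 arrays of 1 kHz cells above all 3 untreated arrays (3.38%) and 871 with all below (9.2%).

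The differences that were measured were small. The median absolute difference between the groups was 0.11 log2, and 7984 genes differed by 1.2-fold or less. The median of all differences was -0.04. In 340 genes the means lay more than 1.5-fold apart and in 93 more than 2-fold, all 93 of them higher at 1 kHz. The highest was the mitochondrial ADP/ATP carrier gene Slc25a4, at 1.94 log2 (adjusted p = 0.547), and the lowest difference of any gene was -0.82. Of these 93 genes 90 also lay more than 1 log2 higher on the second beadchip than on the shared one among the 1 kHz arrays.

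For most genes the intervals were narrow enough to set a limit on the difference between these groups of arrays. The fit held no term for beadchip, so that this difference mixes treatment with beadchip. The 95% interval of the difference lay within 2-fold in both directions for 9001 genes (95.1%), within 1.5-fold for 7695 genes (81.3%) and within 1.2-fold for 1186 genes (12.5%). Its half-width had a median of 0.27 log2 and a 95th percentile of 0.59 log2, which is 1.50-fold. Bright transcripts were measured more tightly than dim ones. In the 2367 genes with the lowest levels the median half-width was 0.37 log2 and 57.6% of intervals lay within 1.5-fold, and in the 2367 with the highest levels these were 0.23 log2 and 93.1%. The median SD within a group was 0.13 log2 in 1 kHz cells and 0.13 log2 in untreated cells. Before any background removal, the SD between arrays was 0.088 log2 at 1 kHz and 0.086 log2 in untreated cells, against a median standard error over the beads of 1 probe of 0.057 log2 at a median of 42 beads.

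The size a change needed to pass the test was larger than the interval, because the threshold falls on 9467 genes at once. If 1 gene alone were to pass, the difference needed for a gene of median precision would be 2.49-fold, and a 2-fold difference would pass in 753 genes (7.95%). If 10 genes passed together it would be 1.93-fold, with 100 genes 1.58-fold and with 1000 genes 1.36-fold. With 100 genes passing, a 2-fold difference would be called in 7981 genes (84.3%). A lone measured difference of less than about 2.49-fold would therefore not be called in a gene of median precision. Because measured differences scatter around the true change, a true change of that size or somewhat larger could also go uncalled.

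**Figure D2:**
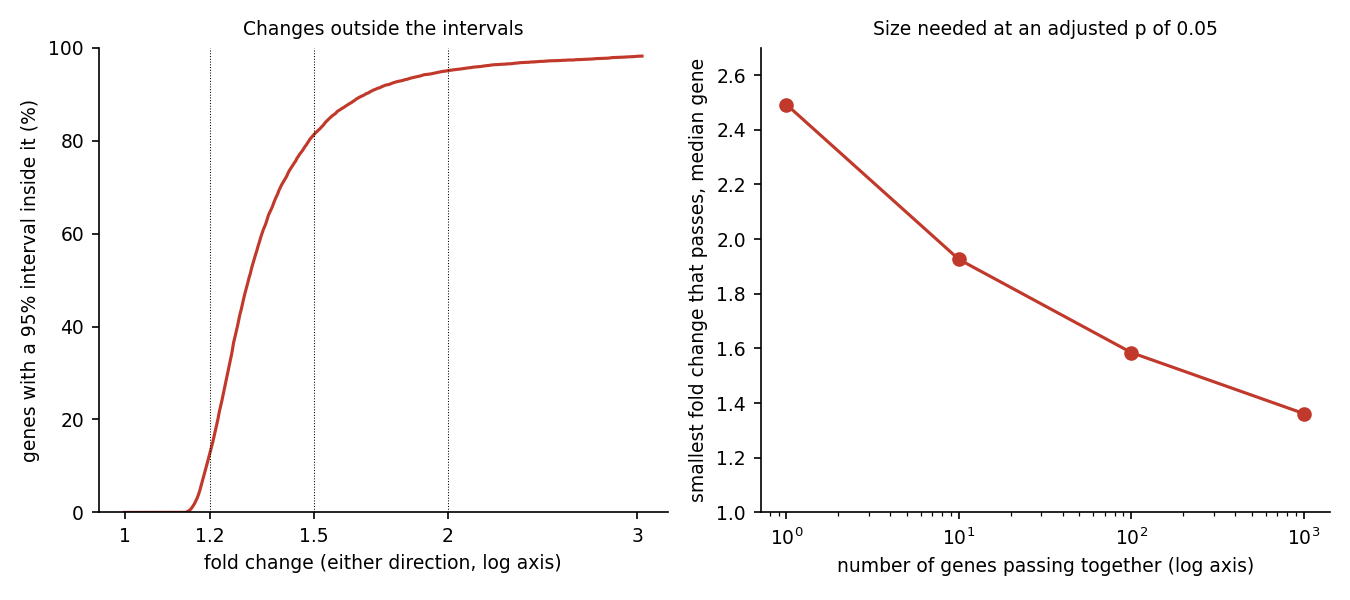
Left, percentage of the 9467 genes (vertical axis) whose 95% interval for 1 kHz over untreated lay inside a given fold change in either direction (horizontal log axis); the dotted lines at 1.2-, 1.5- and 2-fold mark 12.5%, 81.3% and 95.1%. Right, smallest fold change that would reach an adjusted p of 0.05 for a gene of median precision (vertical axis) against the number of genes passing together (horizontal log axis), 2.49-fold for 1 gene and 1.36-fold for 1000.

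Immediate early genes had a median below that of all genes at 1 kHz. Of 36 listed genes 24 were measured, 0 were called, and at an unadjusted p below 0.05 there were 5 lower (20.8%, against 4.47% of all genes) and 0 higher. Only 12 of the 24 had an interval within 1.5-fold (50%, against 81.3% of all genes). Their median was -0.25, against -0.04 for all genes, and -0.20 on the shared beadchip and -0.26 on the second. Without untreated replicate 1, in which Fos, Egr2 and Dusp1 were high, it was -0.13, which is closer to the median of all genes. Without untreated replicate 2 it was -0.34, and the other arrays left out in turn gave values between these. Because earlier results of these arrays already showed this direction, the count is a description. Fos (probe 510368), whose product is part of the transcription factor AP-1, had levels of 12.10, 12.27 and 12.48 log2 in 1 kHz cells and 12.96, 12.25 and 12.69 log2 in untreated cells. The groups overlapped, since untreated replicate 2 lay below 1 kHz replicates 2 and 3. The difference was -0.35 with an interval from -0.80 to 0.09 (limma, adjusted p = 0.578), so that a rise of more than 1.07-fold lay outside it, and so did a fall to less than 0.58 of the untreated level.

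Of the other AP-1 subunits and regulators given here, Fosb lay above 0 and the rest below it. The subunits Fosl2 and Jund differed by -0.72 (interval -1.51 to 0.07) and -0.25 (interval -0.56 to 0.06). Fosb, a relative of Fos, differed by 0.26 (interval -0.18 to 0.70) and Jun, its partner in AP-1, by -0.08 (interval -0.41 to 0.24), both with overlapping groups. Junb (probe 3120014), another AP-1 subunit, had levels of 10.66, 10.74 and 10.70 log2 in 1 kHz cells and 11.05, 10.88 and 11.21 log2 in untreated cells. All 3 of its 1 kHz arrays lay below the untreated ones, by -0.35 ± 0.10 (SE; limma, unadjusted p = 0.0119, adjusted p = 0.547), and by -0.31 on the shared beadchip. Srf, the factor that binds the serum response element of many immediate early promoters, differed by -0.32 and Dusp2, a phosphatase of MAP kinases, by -0.56, each with groups that did not overlap. Dusp1, the related phosphatase, had 11.55, 11.56 and 11.54 log2 at 1 kHz and 12.16, 11.21 and 11.59 log2 in untreated cells. Its 1 kHz arrays were nearly equal, and the untreated arrays were spread around them.

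Egr1 and Egr2 encode zinc finger factors of the same early response. Egr1 (probe 6620079) had levels of 5.33, 5.59 and 5.92 log2 at 1 kHz, where it was detected on 1 of 3 arrays, and 6.11, 6.06 and 6.14 log2 in untreated cells, where it was detected on 3 of 3. The difference was -0.49 (interval -0.84 to -0.15; limma, adjusted p = 0.547), at levels close to background. Egr2 ran from 9.72 to 10.17 log2 at 1 kHz and from 9.58 to 11.18 log2 in untreated cells, and its interval, -1.55 to 0.24, is 1 of only 2 in the list that reach beyond 2-fold, together with that of Fosl2. Atf3, a stress-induced member of the wider family, was detected on 0 of 6 arrays.

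**Figure D3:**
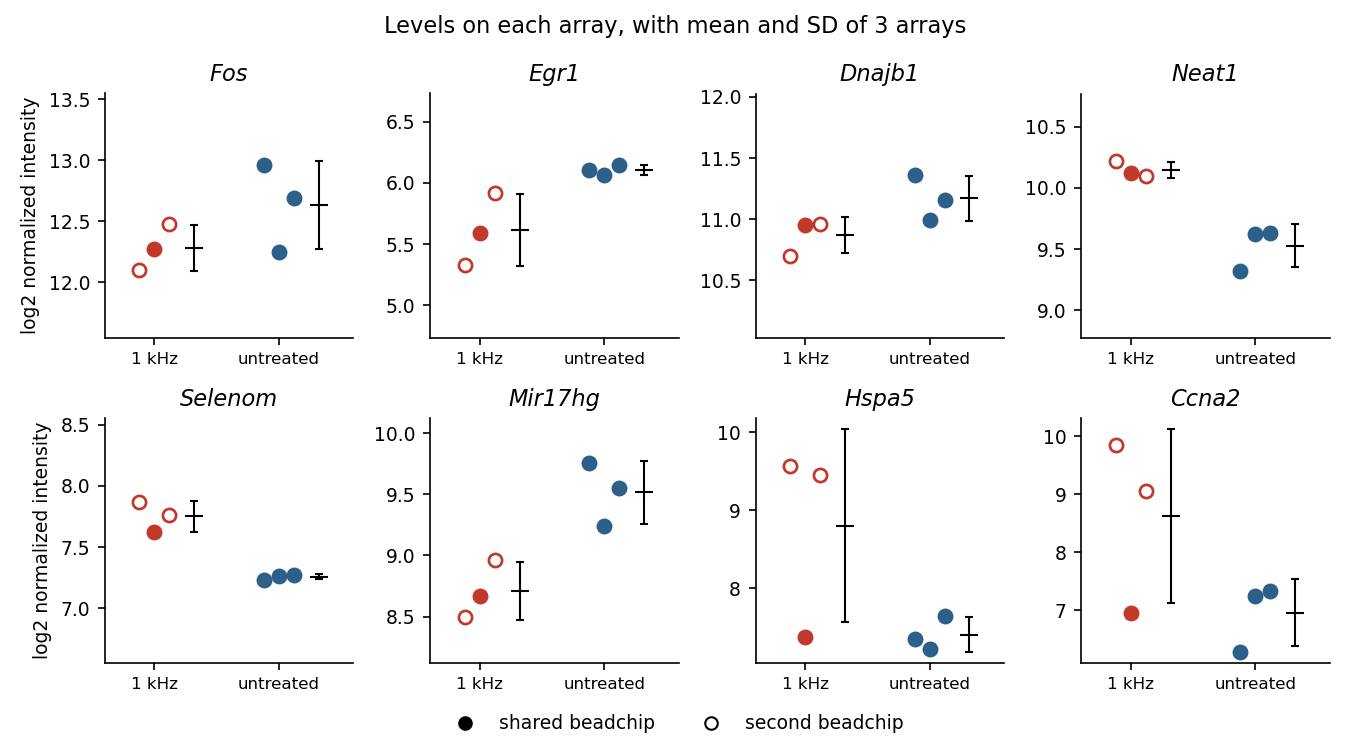
Level of 8 genes on each array (vertical axis, log2 normalized intensity, each panel with its own range of at least 2 log2), 1 kHz at the left and untreated at the right; filled points are arrays of the shared beadchip, open points those of the second, and bars give mean and SD (n = 3). Neat1, Selenom, Mir17hg, Egr1 and Dnajb1 have groups that do not overlap, Fos has groups that do, and Hspa5 and Ccna2 are high only on the 2 open points.

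Chaperone genes did not move together. Of 17 measured heat shock and chaperone genes 0 were called, 2 were higher (11.8%, against 4.34% of all genes) and 1 lower (5.88%, against 4.47%) at an unadjusted p below 0.05, and their median was 0.02. Hspa8 (probe 4920139), the constitutive HSC70, had levels of 14.43, 14.41 and 14.38 log2 at 1 kHz and 14.45, 14.38 and 14.43 log2 in untreated cells. The difference was -0.02 with an interval from -0.20 to 0.17, which is 0.87 to 1.13 of the untreated level. Its 2 other probes, detected on all 6 arrays, lay on both sides of 0, with 0.17 and -0.19. Hsph1, an HSP110 chaperone that follows heat shock factor, differed by 0.00 (interval -0.24 to 0.24). Dnajb1 (probe 4540020), an HSP40 co-chaperone and heat shock factor target, had 10.70, 10.96 and 10.96 log2 at 1 kHz and 11.36, 10.99 and 11.16 log2 in untreated cells. Its groups did not overlap, with 1 kHz lower by a narrow margin (-0.30, interval -0.60 to -0.00; limma, unadjusted p = 0.0481, adjusted p = 0.547). Neither of the inducible HSP70 genes, Hspa1a and Hspa1b, was seen above background (0 of 6 arrays). The 2 higher genes, Cacybp (1.31) and Hsp90aa1 (0.36), differed by 0.18 and 0.04 on the shared beadchip and by 1.87 and 0.53 on the second.

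Genes of the unfolded protein response, which restores folding in the endoplasmic reticulum, gave differences on both sides of 0. Of 17 measured genes 2 were higher (11.8%, against 4.34% of all genes) and 2 lower (11.8%, against 4.47%) at an unadjusted p below 0.05, with a median of -0.09. Hspa5 (probe 150678), the main chaperone of that compartment, had levels of 9.57, 7.38 and 9.46 log2 at 1 kHz and 7.36, 7.22 and 7.65 log2 in untreated cells. Its 1 kHz arrays on the second beadchip were high, and the one on the shared beadchip lay among the untreated arrays, with a difference of -0.03 from their mean. The co-chaperone genes Dnajc3 (-0.27) and Dnajb9 (-0.26) were lower at 1 kHz and differed by -0.34 and -0.31 on the shared beadchip. In the integrated stress response, which slows translation and induces ATF4 targets, 3 of 17 genes were lower (17.6%, against 4.47% of all genes) and 0 higher, with a median of -0.14. These were Sesn2 (-0.41), a leucine sensor, Phgdh (-0.29), the first enzyme of serine synthesis, and Trib3 (-0.29), a pseudokinase, each with groups that did not overlap. Ddit3, the factor CHOP, differed by -0.22 (interval -0.65 to 0.20), with overlapping groups.

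Antioxidant, metal and DNA damage genes were followed through lists of their known targets. Of 21 NRF2 targets and heme genes 1 was higher (4.76%, against 4.34% of all genes) and 2 lower (9.52%, against 4.47%) at an unadjusted p below 0.05, with a median of -0.04. Hmox1, the heme oxygenase induced by oxidative stress, had levels of 9.83, 9.57 and 9.66 log2 at 1 kHz and 9.46, 9.80 and 10.03 log2 in untreated cells, which overlapped (-0.08, interval -0.43 to 0.28). Bach1, the repressor of Hmox1, was lower at 1 kHz by -0.36 with groups that did not overlap, and Nqo1, a quinone reductase, by -0.42 at a level close to background. Of 10 metal response genes 2 were lower (20%, against 4.47% of all genes), the metallothionein gene Mt1 (-0.27) and its activator Mtf1 (-0.39), and the list's median was -0.12. All 14 measured p53 targets had an interval within 1.5-fold (against 81.3% of all genes). Among them Cdkn1a (probe 3130630), the p21 inhibitor of cell cycle kinases, had 13.02, 12.95 and 12.99 log2 at 1 kHz and 13.03, 12.85 and 13.27 log2 in untreated cells, and Zmat3 was lower at an unadjusted p below 0.05 (-0.22). Of 12 NF-kB targets 0 were higher or lower at that threshold, with a median of -0.07. Only 6 of the 12 had an interval within 1.5-fold (50%, against 81.3% of all genes). The intervals of Ccl4 and Birc3 reached beyond 2-fold. Of 8 interferon response genes 1, Bst2 (0.24), was higher (12.5%, against 4.34% of all genes).

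The line grows on a signal from interleukin 3 that runs through the factor STAT5. Of 16 measured interleukin 3 and STAT5 targets 2 were higher (12.5%, against 4.34% of all genes) and 1 lower (6.25%, against 4.47%) at an unadjusted p below 0.05, and their median was -0.05. The receptor genes Il3ra, Csf2rb and Csf2rb2 differed by -0.09, -0.03 and 0.04, with intervals within 1.5-fold. Id1, an inhibitor of helix-loop-helix factors, was higher by 0.44 with overlapping groups. Its relative Id2 was higher by 0.46 with groups that did not overlap, and by 0.04 on the shared beadchip. Bcl2l1, the survival factor BCL-XL, was lower by -0.27 with groups that did not overlap. All 10 measured BCL2 family genes had an interval within 1.5-fold (100%, against 81.3% of all genes).

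Ion channels and pumps set the voltage across the membrane, and annexins help to reseal it. Of 27 measured ion channel and pump genes 24 had an interval within 1.5-fold (88.9%, against 81.3% of all genes), and the median was -0.04. At an unadjusted p below 0.05, 0 of the 27 were higher and 2 lower (7.41%, against 4.47% of all genes). The lower ones were Atp2a2, the calcium pump of the endoplasmic reticulum (-0.46), and Kcnk5, a potassium leak channel (-0.24), both with groups that did not overlap. Of 11 calcium and calcineurin targets 0 reached the unadjusted threshold, and of 17 annexin and membrane repair genes 2 did (11.8%, against 4.34% of all genes), both higher. Those 2, Anxa1 (0.77), a membrane-binding protein, and Vps4b (1.15), an ATPase that recycles the ESCRT machinery, differed by 0.19 and 0.09 on the shared beadchip. Of 26 cytoskeleton genes 1 was lower (3.85%, against 4.47% of all genes), the actin-severing factor Cfl1 (-0.38). An interval within 1.5-fold was found for 22 of the 26 (84.6%, against 81.3% of all genes).

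Intervals in housekeeping pathways were read against the 81.3% of all genes that lay within 1.5-fold. All 16 glycolysis genes and 56 of 60 cytosolic ribosomal protein genes had intervals within 1.5-fold (100% and 93.3%), with medians of 0.01 and 0.02. Gapdh (probe 5870154), a glycolytic enzyme, had levels of 14.58, 14.58 and 14.50 log2 at 1 kHz and 14.35, 14.58 and 14.60 log2 in untreated cells (0.04, interval -0.19 to 0.27). Actb, cytoplasmic actin, differed by -0.10 (interval -0.36 to 0.17). Its 4 other probes, detected on all 6 arrays, disagreed, with -0.10, -0.23, 0.54 and 0.63. Within 1.5-fold were 39 of 46 for oxidative phosphorylation, 24 of 27 for the proteasome, 21 of 23 for ribosome biogenesis, 25 of 29 for G1/S and DNA replication, 20 of 25 for G2/M and mitosis, 10 of 13 for hypoxia response genes and 15 of 20 for cholesterol synthesis. The last 3 of these (80%, 76.9% and 75%) lay below the share of all genes. In the G1/S list 0 genes reached an unadjusted p below 0.05, and in the G2/M list 4 did (16%, all higher, against 4.34% of all genes), of which Ccna2, the S phase and mitotic cyclin, had 9.86, 6.94 and 9.05 log2 at 1 kHz and 6.28, 7.25 and 7.32 log2 in untreated cells. The cyclin was high on both arrays of the second beadchip and within the untreated range on the shared one. Among 15 genes often used as references 13 had an interval within 1.5-fold.

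Splicing regulators had a median below that of all genes, and histone genes one above it. Of 21 measured splicing regulators 6 were lower (28.6%, against 4.47% of all genes) and 0 higher at an unadjusted p below 0.05. Their median was -0.16, and -0.11 on the shared beadchip and -0.20 on the second. With 1 array left out in turn it ran from -0.22 without untreated replicate 2 to -0.11 without 1 kHz replicate 1. Ddx5, an RNA helicase, had levels of 8.32, 8.54 and 8.38 log2 at 1 kHz and 8.70, 8.79 and 9.01 log2 in untreated cells (-0.42, interval -0.68 to -0.15; limma, adjusted p = 0.547), with no overlap. Srsf11 (-0.29), Luc7l3 (-0.31) and Tra2b (-0.27), which bind splice sites or exonic enhancers, had groups that did not overlap either. Srsf11 and Luc7l3 have 4 and 2 other detected probes, which are not reported here. Of 40 histone genes 4 were higher (10%, against 4.34% of all genes) and 0 lower, with a median of 0.20, and 0.15 on the shared beadchip and 0.11 on the second. It was 0.11 without 1 kHz replicate 2 and 0.12 without untreated replicate 1, and at most 0.26, without untreated replicate 2. H3c4, a core histone gene, had 8.92, 8.90 and 8.62 log2 at 1 kHz and 8.47, 8.56 and 8.43 log2 in untreated cells (0.33, interval 0.07 to 0.58), and H1f0, a linker histone gene, differed by 0.72 but by 0.09 on the shared beadchip. Because histone genes share near-identical copies, the probes of these genes may not tell every copy apart. Both directions were already known from earlier results of these arrays.

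**Figure D4:**
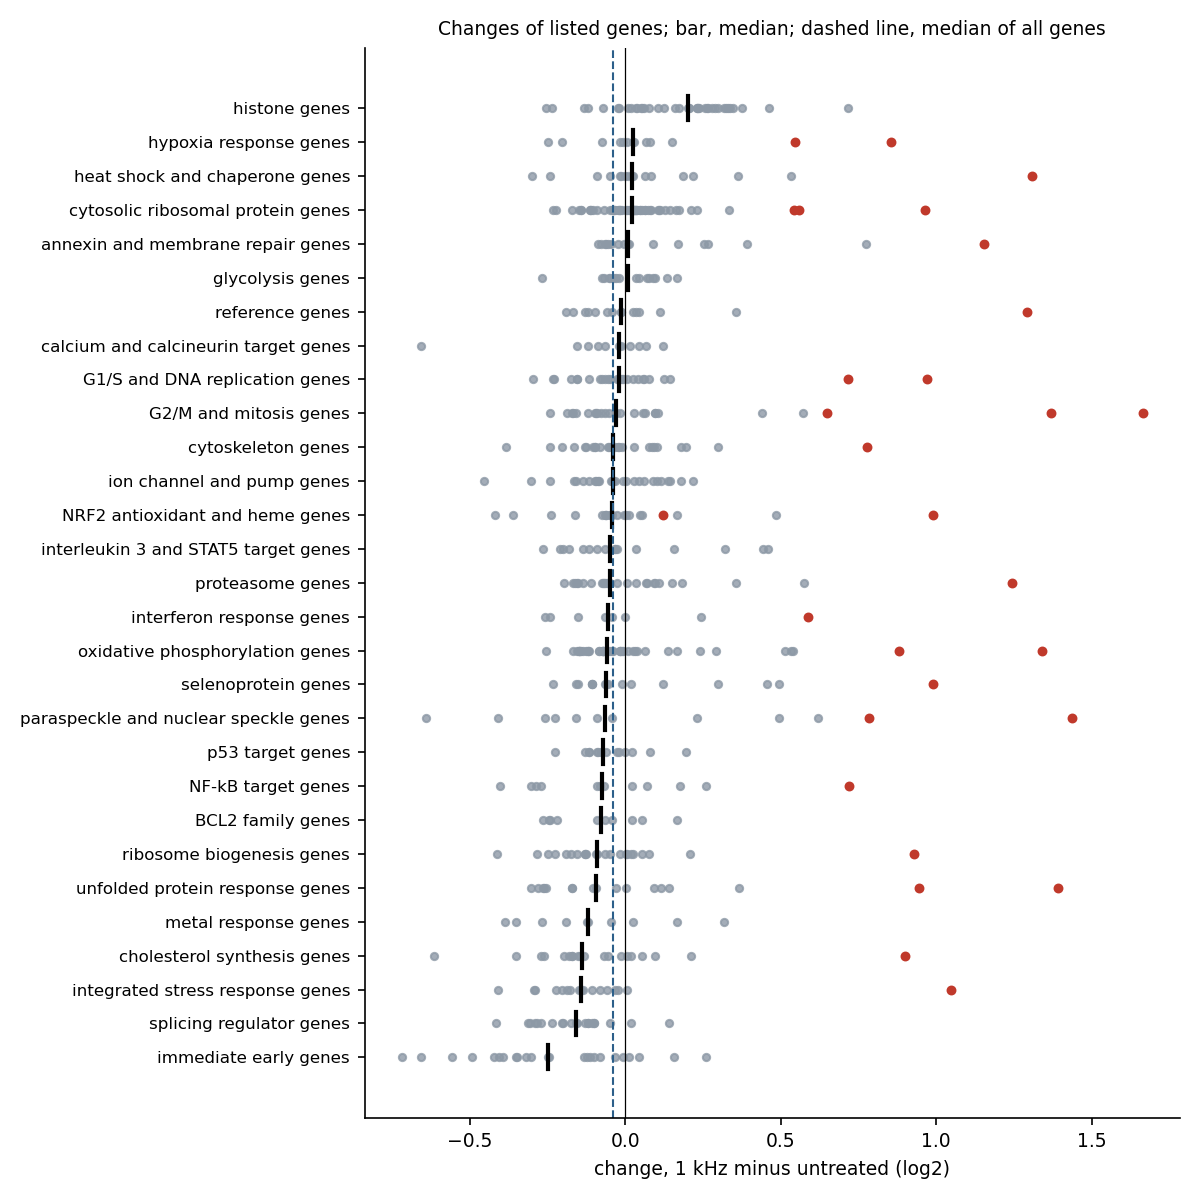
Difference of each measured gene between 1 kHz and untreated cells (horizontal axis, log2) for 29 gene lists (rows), with the list median as a black bar and the median of all genes as a dashed line. Red points are genes more than 1 log2 higher on the second beadchip than on the shared one among the 1 kHz arrays, and most of the differences above 0.7 are red; medians run from -0.25 for immediate early genes to 0.20 for histone genes.

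The long noncoding RNA Neat1 was among the 12 genes with the smallest p-values that were higher at 1 kHz. Neat1 (probe 1690497), which builds nuclear paraspeckles, had levels of 10.22, 10.12 and 10.10 log2 in 1 kHz cells and 9.32, 9.63 and 9.63 log2 in untreated cells. All 1 kHz arrays lay above all untreated arrays, by 0.62 ± 0.11 (SE), which is 1.54-fold (interval 1.28 to 1.84; limma, unadjusted p = 0.000692, adjusted p = 0.547). The difference was 0.59 on the shared beadchip and 0.63 on the second. The paraspeckle proteins did not follow it as a group. Of 12 measured genes of paraspeckles and nuclear speckles 3 were higher (25%, against 4.34% of all genes), Neat1 included. In the same list 1 was lower (8.33%, against 4.47% of all genes), and the median was -0.07. Only 4 of the 12 had an interval within 1.5-fold (33.3%, against 81.3% of all genes). The other 2 higher genes were Nono, a core paraspeckle protein, and Rbm14. They differed by 1.44 and 0.78, but by 0.15 and -0.03 on the shared beadchip. Tardbp, an RNA-binding protein, differed by -0.64 on both beadchips by its brightest probe, and its 3 other detected probes are not reported here.

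Selenom (probe 5550195), a selenoprotein of the endoplasmic reticulum, had levels of 7.87, 7.62 and 7.76 log2 at 1 kHz and 7.23, 7.27 and 7.27 log2 in untreated cells. The groups did not overlap, and the difference was 0.49 ± 0.09 (SE), which is 1.41-fold (interval 1.21 to 1.64; limma, unadjusted p = 0.001, adjusted p = 0.547), with 0.36 on the shared beadchip and 0.56 on the second. Of 17 measured selenoprotein genes 4 were higher (23.5%, against 4.34% of all genes) and 0 lower, but their median was -0.06. The other 3 were Txnrd1, the cytosolic thioredoxin reductase (0.99), Msrb1, a methionine sulfoxide reductase (0.46), and Selenok, of the endoplasmic reticulum membrane (0.30). On the shared beadchip these 3 differed by 0.12, 0.05 and 0.07.

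Cstdc5, of the stefin family of protease inhibitors, had 11.76, 11.41 and 11.64 log2 at 1 kHz and 10.90, 11.16 and 10.92 log2 in untreated cells (0.61, interval 0.32 to 0.91; limma, adjusted p = 0.547). Other genes of the same selection lay near background. Toporsl was detected on 3 of 3 arrays at 1 kHz and 0 of 3 untreated arrays, which makes it at least 1.32-fold higher, and Slx1b, part of a nuclease that cuts branched DNA, was at least 1.05-fold higher on the same pattern. Both passed the detection filter only through the 1 kHz arrays, so that their direction was fixed by the filter. Such a bound sets each undetected array at its lowest detected signal, or at the gene's signal there if higher. Ankle1, an endonuclease, Ddah2, of the dimethylarginine hydrolase family, and Pask, a metabolic kinase, were higher by 0.57, 0.52 and 0.78, with 2 of 3 untreated arrays detected.

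Mir17hg was among the 12 genes with the smallest p-values that were lower at 1 kHz, with predicted genes and names kept from the file left out. Mir17hg (probe 6940504), the host transcript of a cluster of microRNAs that includes miR-17, had levels of 8.49, 8.67 and 8.96 log2 at 1 kHz and 9.76, 9.24 and 9.55 log2 in untreated cells. The 1 kHz arrays all lay below the untreated ones, by -0.81 ± 0.17 (SE), which is 0.57 of the untreated level (interval 0.44 to 0.75; limma, unadjusted p = 0.00167, adjusted p = 0.547). The difference was -0.84 on the shared beadchip and -0.79 on the second. Coq10b, a coenzyme Q-binding protein of mitochondria, had 6.73, 6.67 and 6.64 log2 at 1 kHz and 7.42, 7.15 and 7.38 log2 in untreated cells (-0.64, interval -0.87 to -0.40; limma, adjusted p = 0.547). Its 2 other detected probes gave -0.22 and -0.26, less than that probe.

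Other lower genes of that selection lay closer to background. Smyd5, of a family of lysine methyltransferases, Tapbpl, a chaperone of MHC class I, and Cldn12, a claudin, were lower by -0.52, -0.49 and -0.71, and Kdm5a, a histone demethylase, by -0.51 with detection on 2 of 3 arrays at 1 kHz. Slc1a5, a glutamine transporter, was detected on 0 of 3 arrays at 1 kHz and 3 of 3 untreated arrays, which makes it at least 1.08-fold lower. It passed the detection filter only through the untreated arrays, so that its direction was fixed by the filter. Its 4 other probes were detected on at most 1 array.

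A set of transcripts separated the 1 kHz arrays by beadchip. In 286 genes (3.02%) the mean of 1 kHz replicates 1 and 3 lay more than 1 log2 above 1 kHz replicate 2, and in 0 genes (0%) as far below. Since that difference chose the genes, its size (a median of 1.35 log2) is a description. Against the untreated mean these genes had a median of 1.29 on the second beadchip and -0.04 on the shared beadchip. Rad21, a cohesin subunit, had 10.24, 7.55 and 10.03 log2 at 1 kHz and 7.04, 7.47 and 7.82 log2 in untreated cells, and Tpt1, a translationally controlled tumour protein, had 10.01, 7.45 and 9.55 log2 at 1 kHz and 7.16, 7.43 and 8.20 log2 in untreated cells. In both, 1 kHz replicate 2 lay within the untreated range and the arrays of the other beadchip more than 1 log2 above it.

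The 18 kHz arrays, which did not choose these genes, also lay apart by beadchip in these genes. There replicate 1 was on the second beadchip and replicates 2 and 3 on the shared one. Replicate 1 lay above replicate 3 in 283 of the 286 genes (99%, against 41.5% of all genes), with a median difference of 1.43 log2 against -0.08 for all genes. Rad21 had 8.91, 6.72 and 6.55 log2 in 18 kHz replicates 1, 2 and 3, and Slc25a4 had 8.19, 4.87 and 5.22 log2. Among other detected probes of the same genes 7 of 41 were more than 1 log2 higher on the second beadchip at 1 kHz. That is 17.1%, against 3.02% of all genes. What separates the beadchips was not tested.

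These genes overlap those that stood higher at 1 kHz, in part because both were chosen on the same arrays. Of the 411 genes higher at an unadjusted p below 0.05, 138 (33.6%, against 3.02% of all genes) were among the 286. The shared-beadchip array lay within 1.2-fold of the untreated mean in 299 of the 411 (72.7%) and in 228 of the 423 lower genes (53.9%), against 88% of all genes. Left without 1 kHz replicate 2, the comparison called 533 of 9310 genes (5.73%), 488 higher and 45 lower. Of 531 of these measured by the same probe, 519 (97.7%) lay within 1.5-fold of the untreated mean on the array that was left out, as did 99% of all genes. Within the shared beadchip, with 1 array of 1 kHz cells assumed to vary like the untreated ones, 0 of 9138 genes were called and 208 reached an unadjusted p below 0.05.

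**Figure D5:**
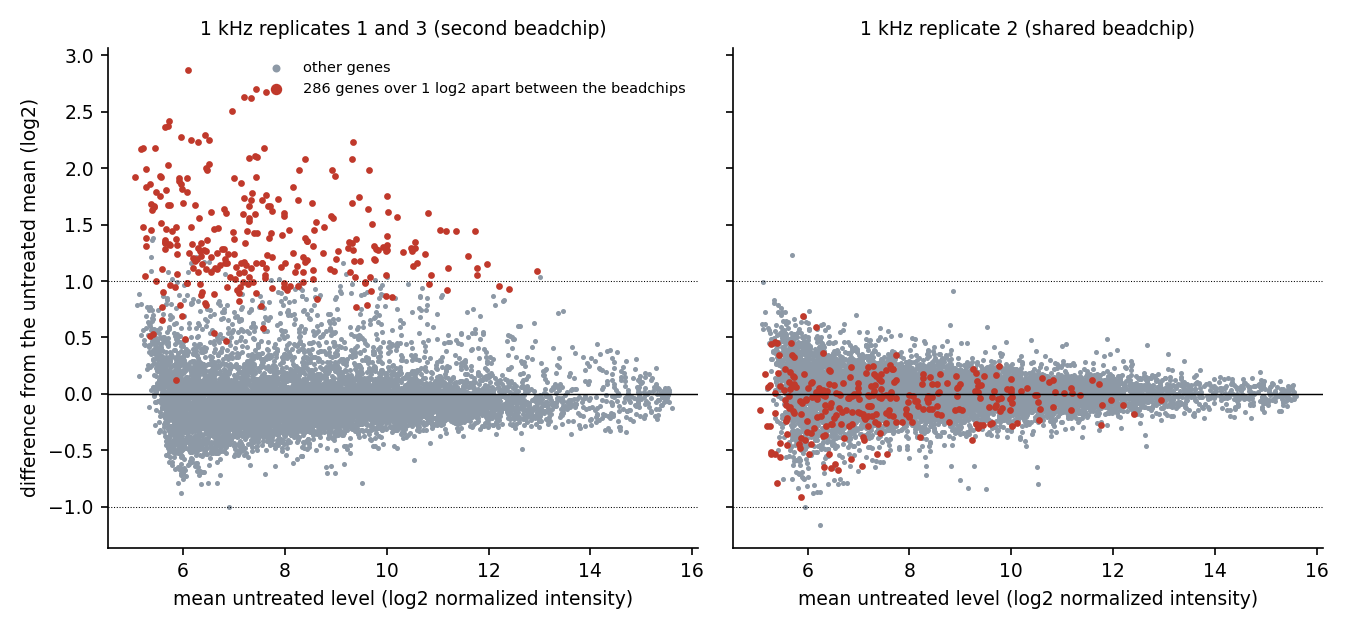
Difference from the untreated mean (vertical axis, log2; dotted lines at 2-fold) against the mean untreated level (horizontal axis, log2 normalized intensity) for 9467 genes, for the mean of the 1 kHz arrays of the second beadchip (left) and the 1 kHz array of the shared beadchip (right). The 286 red genes, chosen for the difference between these panels, centre on 1.29 at the left and on -0.04 at the right.

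At 18 kHz 246 of 9675 genes were called (2.54%) against the same 3 untreated arrays, and several of the genes named here differed by far more. In a fit of all 9 arrays Dusp1 differed from untreated cells by -0.10 at 1 kHz and -3.27 at 18 kHz, and Neat1 by 0.63 at 1 kHz and 1.96 at 18 kHz. Fos was detected on 2 of 3 arrays at 18 kHz and Mir17hg on 1 of 3, so that only their deposited intensities are given. The bead intensities of Fos were 4057.2, 5328.7 and 6773.7 at 1 kHz, 167.1, 114.6 and 156.1 at 18 kHz, and 8136.1, 4807.4 and 6399.8 in untreated cells. Those of Mir17hg were 446.7, 554.7 and 739.2 at 1 kHz, 127.5, 107.2 and 137.5 at 18 kHz, and 948.2, 698.1 and 831.6 in untreated cells. Both were dimmest on all 3 of the 18 kHz arrays. Between the frequencies, in the same fit of all 9 arrays, Neat1 was lower at 1 kHz by -1.33 (limma, adjusted p = 0.0135), and Selenom differed by -0.07 (limma, adjusted p = 0.696). The untreated arrays entered the normalization and the spread behind these values. The 18 kHz arrays were dimmer than the others, and the part of this in these differences was not tested.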

How the data were processed

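The deposited table, written by GSGX version 1.7.0 per the file headers, gives the authors' average bead intensity per probe and array, not normalized and without background subtraction, with a detection p-value, bead standard error and bead number. Of its 12 arrays 9 were matched to samples by the beadchip and position in the labels, and 3 matched no sample and were not used. No 2 arrays were identical (0 pairs). The 6 arrays were processed alone in R 4.3.3 with data.table, version 1.17.8, and limma 3.58.1. A normal-exponential model, fitted through the detection p-values, took off the background. After adding 16 to each value, the arrays were given a common distribution (quantile) and put on the log2 scale, which hides a shift of all transcripts together. Probes with a detection p below 0.01 on at least 3 of 6 arrays were kept, and the brightest probe per gene was used. Names came from the RefSeq table of GRCm38.p6, and for 1117 of 9467 genes the name in the file was kept. Differences are 1 kHz minus untreated, tested two-sided with lmFit and eBayes and Benjamini-Hochberg adjustment over all genes at a threshold of 0.05. The authors' deposited log2 table (40083 probes, centred near 0, normalization not given in the sources used here) served as an alternative.

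Genes named are the 12 higher and 12 lower ones with the smallest p, up to 4 per list, and fixed stress and reference genes. For the 12 higher and 12 lower ones, predicted genes and genes whose name was kept from the file were skipped. The text gives a selection. Some genes so named are not reported here. The members and the 35 gene lists were chosen with earlier results of these data known. The script was tested on simulated data that held no beadchip effect, so that the test does not bear on the uneven beadchips.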

Additional observations from a re-analysis of the deposited data

How the results depend on the processing

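The count of called genes was 0 with all 6 arrays and in 21 of 22 alternatives, and 533 without 1 kHz replicate 2 (0 to 533 over the arrays left out in turn). The count at an unadjusted p below 0.05, 834 with all 6 arrays, was 173 with all 9 arrays of the batch, 1876 with no detection filter, 1281 over every detected probe, 1733 with array weights, 287 and 94 with beadchip as a fixed block over 6 and 9 arrays, 518 as a random block and 208 on the shared beadchip alone. Leaving out 1 array gave 331 to 1734, the lowest without 1 kHz replicate 1 and the highest without 1 kHz replicate 2, with 389 without 1 kHz replicate 3 and 451 without untreated replicate 1. The number of genes with an interval within 2-fold, 9001 of 9467 (95.1%) with all 6 arrays, was 8692 to 8884 with 1 array left out (93.9% to 95.6%). It was 8723 of 9675 (90.2%) with all 9 arrays and 8414 of 9675 (87%) with beadchip as a fixed block over 9 arrays. With no detection filter it was 28199 of 28859 (97.7%), and the highest share was 98.6%, on the deposited log2 table. The lowest adjusted p was 0.0637 with a trended and robust prior, 0.12 with array weights and 0.245 on the deposited log2 table. With the replicate number as a block 0 genes were called and 855 reached an unadjusted p below 0.05. Same-numbered arrays deviated together at correlations of -0.243, 0.0825 and 0.159, and differently numbered ones at -0.251 to 0.215. With 3 arrays a group and beadchip mixed with treatment, these values cannot tell whether same-numbered arrays were paired. Of 167 named genes 122 kept their sign in every alternative, Fos, Neat1, Selenom and Mir17hg among them. Neat1 ran from 0.43 to 0.67, Selenom from 0.26 to 0.56, Mir17hg from -0.94 to -0.63 and Fos from -0.59 to -0.19. Neat1, Selenom and Coq10b were called in 1 alternative each, that without 1 kHz replicate 2. The causes of these shifts were not tested. Low signal limits the dimmest genes, and 3 arrays a group limit all.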
